A study of Ambystoma mexicanum with 17 samples.

Results

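The genes described here carry out mitosis: the centromere and kinetochore genes, the spindle checkpoint genes, the mitotic cyclins and kinases, the condensins, the mitotic kinesins, and a pair of genes of the chromosomal passenger complex and of cytokinesis. They were chosen by symbol alone, from a fixed set of names and name patterns, with no measured value. The rule found 56 genes among the 122775 gene IDs counted in each library. Another 5 names of the rule (CENPA, NUF2, SPC24, CCNB2 and KIF18B) were not among the symbols of the files used here and were not analysed here. By role, 18 were CENP genes of the centromere and kinetochore, 5 belonged to the NDC80 and SKA complexes, 6 to the spindle checkpoint, 7 were cyclins and kinases, 8 were condensins or other chromosome structure genes, 10 were kinesins, and 2 were passenger or cytokinesis genes.

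In mitosis, each chromosome is compacted by condensins and topoisomerase, and a kinetochore is built on its centromere. Spindle microtubules attach to the kinetochores through the NDC80 complex, the spindle checkpoint delays anaphase until every kinetochore is attached, and cyclin-bound CDK1 drives entry into the phase until the cyclins are destroyed. Because most of these genes are transcribed late in the cell cycle, their transcripts mark dividing cells, and a limb blastema, the bud of cells from which an amphibian limb regrows, is known as a proliferating tissue.

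Polyadenylated RNA was sequenced from forelimb tissue of axolotls (Ambystoma mexicanum) of the white d/d genotype, which all groups shared. There were 5 libraries of posterior blastemas that had received U0126 at 25 uM, a blocker of the MEK kinases upstream of ERK, 4 of posterior blastemas without the inhibitor, 5 of anterior blastemas, and 3 of uninjured forelimb. Blastemas had been raised by rerouting a nerve and were harvested 10 days after injury, with the wound epithelium left on. The labels name DMSO and Holtfreter's solution beside the inhibitor, without saying which of these the posterior blastemas without inhibitor received, and they do not say whether each library is a different animal. The p-values therefore describe differences relative to the scatter among these libraries, which may be technical. Libraries are named below by group and by the replicate number in the labels. The comparisons ask whether the inhibitor, the side of the limb and regeneration itself go with different levels of these genes.

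Each library held 34181446 to 53856865 reads counted in genes. Mesenchyme and epidermis markers were abundant in all 17 libraries, at summed levels of 4401 to 23421 CPM (reads counted per 1000000, after scaling of the libraries) over 10 genes and 1637 to 3834 CPM over 7 genes. Uninjured library 1 stood apart from its group: its 7 skeletal muscle genes summed to 563 CPM, against 6740 and 14419 CPM in uninjured libraries 2 and 3. With this low muscle sum and, for the 56 mitosis genes, a sum above those of all blastema libraries but U0126 library 4, its label is in doubt. Whether the label is right was not tested, since uninjured library 2 also lay within the range of the blastemas in both sums, and the library is called by its label here. U0126 library 5, at 1477 CPM for the sum of the 56 mitosis genes, and posterior library 4, at 1378 CPM, were the lowest of their groups, against 1843 to 2405 CPM and 1980 to 2111 CPM in the others. Some of the results that rest on these libraries, chiefly counts and medians, are also given without them. Values with no library named as left out rest on all libraries. Since the tissue was sequenced in bulk, fewer dividing cells and less RNA per dividing cell cannot be told apart.

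The filter on low counts passed 55 of the 56. CCNA1, a cyclin known in mouse from the male germ line, did not pass and reached at most 0.959 CPM in any library. The other 55 were present in every library. Summed over the 56 genes, the level was 1843, 2135, 2171, 2405 and 1477 CPM in U0126 libraries 1 to 5, 1980, 2111, 2026 and 1378 CPM in posterior libraries 1 to 4, 2123, 2251, 2028, 1723 and 2013 CPM in anterior libraries 1 to 5, and 2374, 1534 and 1081 CPM in uninjured libraries 1 to 3. The ranges of the U0126, posterior and anterior libraries overlapped, and the anterior range was the narrowest. Uninjured library 1 lay within the U0126 range, while uninjured library 3 was the lowest of the 17. Uninjured library 3 held the lowest value of all libraries for 44 of the 55 tested genes, against 16.8% of all genes tested. Uninjured library 1 was the highest of its group for 47 of the 55, and its level was a median of 2.32 times that of uninjured library 3, with 32 of the 55 above 2-fold against 11.4% of all genes compared.

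**Figure D1:**
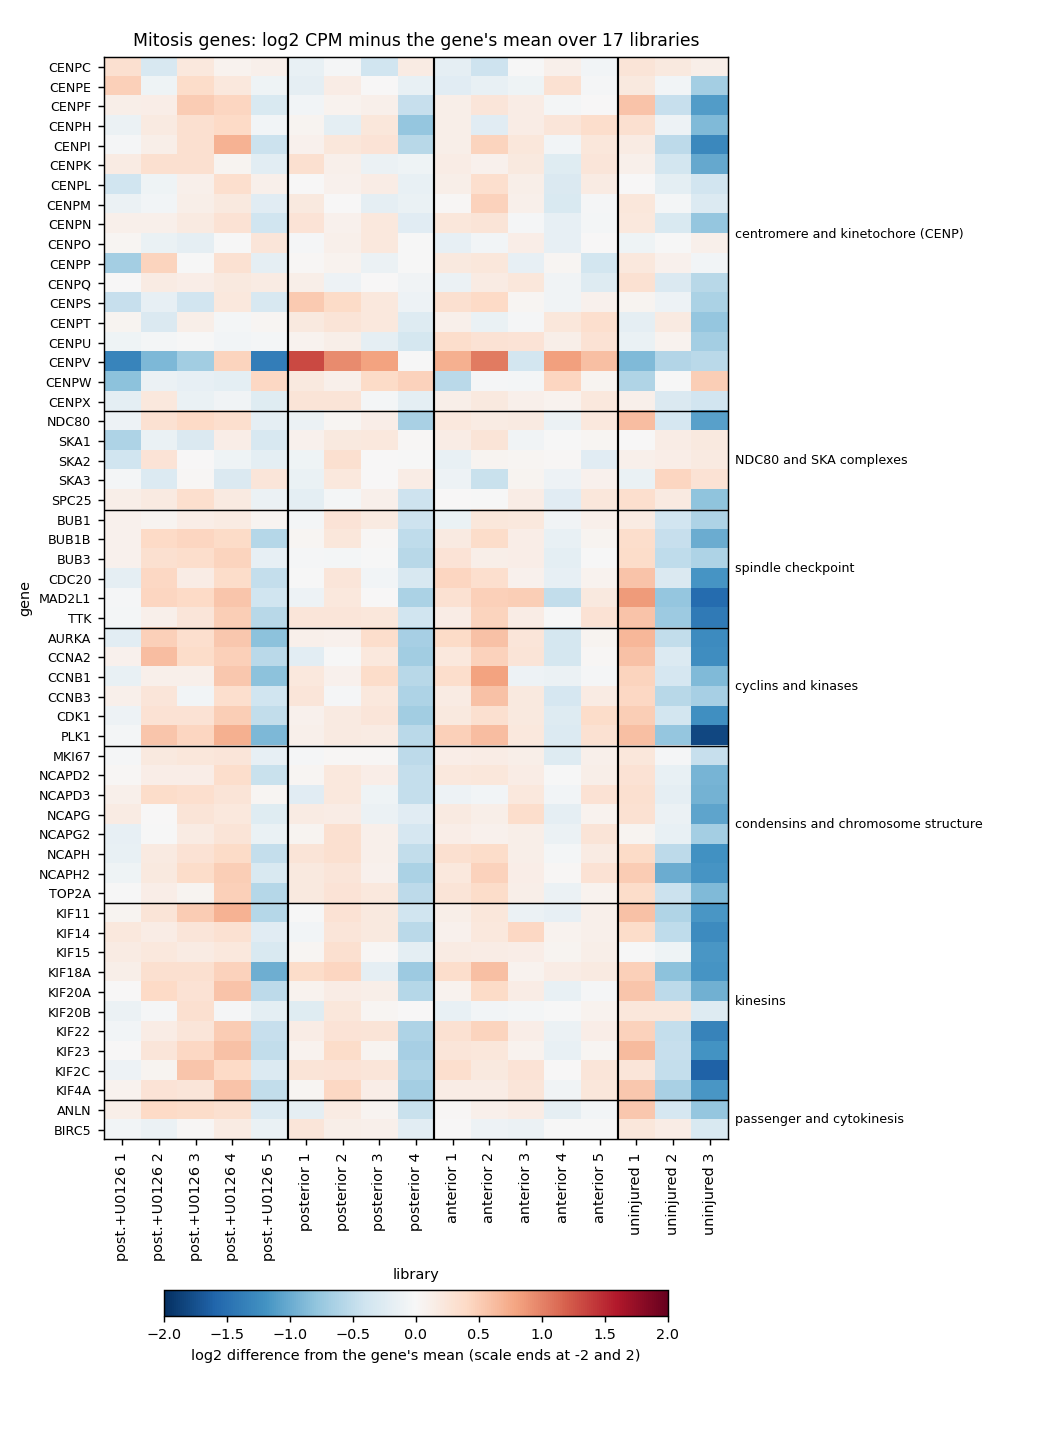
Heat map of the 55 tested mitosis genes (rows, ordered by role) in the 17 libraries (columns, by group); colour gives log2 CPM minus the gene's mean over all libraries, and the scale ends at -2 and 2. Most rows are low in uninjured 3 and in the lowest library of each blastema group (U0126 5, posterior 4 and anterior 4), while CENPV is low in most U0126 libraries and in the uninjured ones.

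The genes varied together from library to library within the blastema groups as well. U0126 library 5 was the lowest of its group for 40 of the 55 genes, posterior library 4 for 44 and anterior library 4 for 39, against 28.3%, 29.1% and 21.7% of all genes. The median coefficient of variation of the mitosis genes was 18.7% over U0126, 18.4% over posterior, 12.6% over anterior and 40.4% over uninjured libraries; over all genes it was 20.9%, 15.6%, 16.1% and 25.9%. The spread of the mitosis genes thus exceeded that of all genes in the posterior and uninjured groups, most in the uninjured one. It was smaller than that of all genes in the U0126 and anterior groups.

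**Figure D2:**
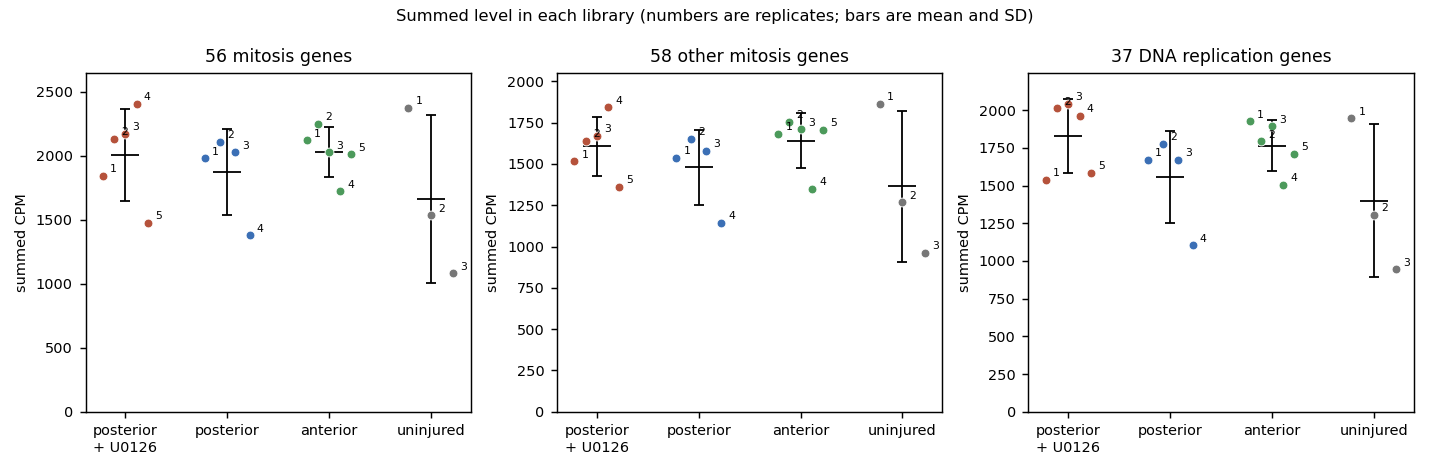
Summed CPM in each library (points, numbered by replicate) for the 56 mitosis genes, for 58 other mitosis genes outside the set and for 37 DNA replication genes, with mean and SD per group (bars). Uninjured library 1 is the highest of all libraries for the other mitosis genes and sits among the blastemas in the remaining panels; in all 3 panels uninjured library 3 is lowest, and posterior library 4 lies below the other posterior libraries.

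The comparison of posterior blastemas with and without U0126 asked what the inhibitor changed. A single gene, CENPV, passed the test, and it was lower with U0126. The other 54 tested genes had log2 fold changes between −0.47 and 0.40 and none passed. With edgeR's quasi-likelihood test and Benjamini-Hochberg adjustment over 19398 genes, 3.99% of all genes were called lower and 4.13% higher with U0126, against 1 (CENPV) and 0 of the 55. The median log2 fold change was 0.08 over the 55 genes and −0.00 over all genes; 39 of the 55 were above 0, against 49.7% of all genes. The median turned to −0.03 without posterior library 4 and was 0.17 without U0126 library 5.

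CENPV is known in human cells as a protein of the centromere that is needed for chromosome alignment and cytokinesis. Its level was 7.45, 10.1, 11.6, 25.5 and 7.12 CPM in U0126 libraries 1 to 5, 46.7, 35.9, 32.6 and 18.5 CPM in posterior libraries 1 to 4, 30.5, 38.3, 14.5, 32.9 and 28.4 CPM in anterior libraries 1 to 5, and 10.1, 12.4 and 12.9 CPM in uninjured libraries 1 to 3. All U0126 libraries but library 4 lay below every posterior library, and U0126 library 4 lay above posterior library 4, so the groups overlapped. The mean was 12.3 ± 7.58 CPM with U0126 (SD, n = 5) and 33.4 ± 11.6 CPM without it (SD, n = 4). The log2 fold change was −1.44 ± 0.37 (SE; 95% interval −2.22 to −0.66; edgeR adjusted p = 0.0303), a level 0.369 times that of the posterior blastemas. Under DESeq2, which called 2 of the 55 (CENPV and SKA1) and 15.3% of all genes, the adjusted p was 0.00274. The adjusted p ran from 0.0520 to 0.105 when U0126 library 1, 2, 3 or 5 or posterior library 1, 2 or 3 was left out, so the call then ended, although the log2 fold change stayed between −1.45 and −1.23. It was 0.0703 with only these groups in the fit.

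Of the summed tissue markers, only those of mesenchyme did not overlap between posterior blastemas with U0126 and those without it. The skeletal muscle sums, for example, were 355 to 6437 CPM with U0126 and 1045 to 7095 CPM without it. The 10 mesenchyme markers summed to 4708, 8555, 4401, 11920 and 12278 CPM in U0126 libraries 1 to 5 and to 17242, 14817, 16659 and 23421 CPM in posterior libraries 1 to 4, so every U0126 library was lower. The 7 epidermis markers summed to 2407 to 3450 CPM with U0126 and to 1637 to 2661 CPM without it. The 8 macrophage markers summed to 384 to 754 CPM with U0126 and to 693 to 1430 CPM without it. Within the groups, CENPV and the mesenchyme sum did not keep 1 order: U0126 library 5 and posterior library 4 had the lowest CENPV and the highest mesenchyme sum of their groups, while U0126 library 4, with the highest CENPV of its group, had the next highest mesenchyme sum. Anterior libraries 2 and 4 were the highest of their group in both, and the uninjured libraries had the same order in both. The part of tissue makeup in the CENPV result was not tested.

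**Figure D3:**
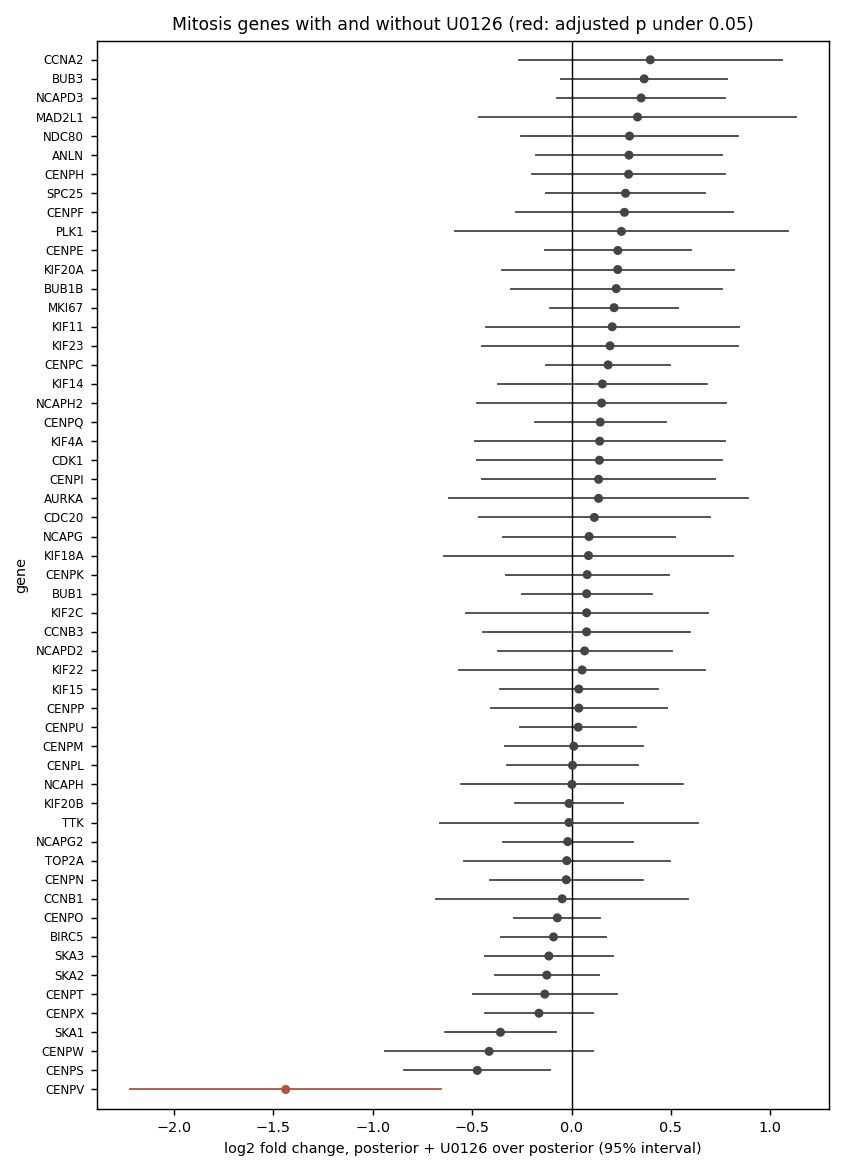
Log2 fold change of each of the 55 tested mitosis genes in posterior blastemas with U0126 over posterior blastemas without it (points) with 95% intervals (lines), ordered by size; red marks an adjusted p under 0.05. CENPV alone is red, at −1.44, and the other 54 genes lie between −0.47 and 0.40.

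Among the other CENP genes, the next lowest fold change was that of CENPS, a histone-fold protein of the inner kinetochore that also acts in DNA repair. It was at 13.2, 16.4, 14.04, 21.2 and 14.6 CPM in U0126 libraries 1 to 5 and 26.2, 23.8, 21.2 and 17.1 CPM in posterior libraries 1 to 4. U0126 library 4 reached the level of the posterior libraries, and posterior library 4 was the lowest of its group. The log2 fold change was −0.47 ± 0.17 (SE), and it did not pass (edgeR adjusted p = 0.1001). Without U0126 library 4 it did, at −0.60 (edgeR adjusted p = 0.0301). That fit called 3 of the 55 and 2381 of 19345 genes, and no other alternative called CENPS. For CENPW, which pairs with CENPT in the inner kinetochore, the log2 fold change was −0.41 ± 0.25 (SE). That of CENPF, a large protein of the outer kinetochore, was 0.27 ± 0.26 (SE). Over all 18 CENP genes the median was 0.02, with 11 above 0.

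In the complexes that grip microtubules, the values differed in direction. SKA1, a subunit of the complex that in human cells holds kinetochores onto shortening microtubules, was at 5.71, 7.97, 7.14, 9.58 and 6.97 CPM in U0126 libraries 1 to 5 and 9.29, 9.99, 10.1 and 8.87 CPM in posterior libraries 1 to 4. Apart from U0126 library 4, every U0126 library was below every posterior one. Its log2 fold change was −0.36 ± 0.13 (SE, edgeR adjusted p = 0.104). It passed in DESeq2 (adjusted p = 0.0484), where 15.3% of all genes passed. Without U0126 library 4 it also passed, at −0.46 (edgeR adjusted p = 0.0243), as did 2381 of 19345 genes. NDC80, the main microtubule-binding subunit of the kinetochore, had 0.29 ± 0.26 (SE) on the same scale, with a 95% interval of −0.26 to 0.84.

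The spindle checkpoint genes had log2 fold changes of −0.01 to 0.37, and none passed. BUB3, the partner that brings the checkpoint kinases to the kinetochore, was at 95.1, 113, 115, 122 and 79.7 CPM in U0126 libraries 1 to 5 and 88.8, 87.3, 89.00 and 60.9 CPM in posterior libraries 1 to 4. Posterior library 4 lay well below the other 3 posterior libraries, and U0126 library 5 was below them too. The log2 fold change was 0.37 ± 0.20 (SE; edgeR adjusted p = 0.268). CDC20, the activator of the anaphase-promoting complex, had a log2 fold change of 0.11 ± 0.27 (SE).

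For the cyclins and kinases the intervals were wide, and they reach to both sides of 0. CDK1, the kinase that starts mitosis, was at 40.2, 53.2, 52.9, 60.8 and 30.9 CPM in U0126 libraries 1 to 5 and 46.1, 48.8, 51.1 and 26.8 CPM in posterior libraries 1 to 4. CCNB1, its cyclin B partner, was at 35.4, 42.3, 42.1, 57.3 and 22.4 CPM in U0126 libraries 1 to 5 and 45.5, 42.1, 50.6 and 26.8 CPM in posterior libraries 1 to 4. In both genes the lowest library of each group was the one low for most of the set, U0126 library 5 and posterior library 4, and the groups overlapped throughout. On the log2 scale the fold change was 0.14 for CDK1 (95% interval −0.48 to 0.76) and −0.05 for CCNB1 (−0.68 to 0.59). PLK1, a kinase that acts from mitotic entry to cytokinesis, had one of 0.25 (−0.59 to 1.09), and CCNA2, the cyclin of S phase and mitotic entry, the highest of the 55, at 0.40 (−0.27 to 1.06).

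MKI67, the Ki-67 proliferation marker that coats mitotic chromosomes, was at 298, 347, 353, 357 and 269.7 CPM in U0126 libraries 1 to 5 and 297, 306, 307 and 210.1 CPM in posterior libraries 1 to 4. TOP2A, the topoisomerase that untangles sister chromatids, was at 255, 279, 266, 355 and 172 CPM in U0126 libraries 1 to 5 and 294, 309, 298 and 179 CPM in posterior libraries 1 to 4. Both genes overlapped between the groups, and in both posterior library 4 was far below the other 3 posterior libraries. With U0126 the log2 fold change was 0.21 for MKI67 (95% interval −0.11 to 0.54) and −0.02 for TOP2A (−0.54 to 0.49). NCAPD3, a subunit of condensin II, had one of 0.35 ± 0.20 (SE). The 10 kinesin genes ran from −0.01 to 0.23; KIF11, the motor that pushes spindle poles apart, had 0.20 ± 0.30 (SE) and ANLN, a scaffold of the cleavage furrow, 0.29 ± 0.22 (SE).

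The side of the limb was the second question. None of the 55 genes passed between posterior and anterior blastemas in edgeR's quasi-likelihood test, where 0% of all genes were called higher and 0.00516% lower on the posterior side; DESeq2 called none of the 55 either, and 0.655% of all genes. At an unadjusted p under 0.05 there was 1 gene, CENPU, against 4.01% of all genes lower. The median log2 fold change was −0.12 over the 55 and −0.00 over all genes, with 42 of the 55 below 0 against 50% of all genes, and without posterior library 4 that median was 0.01. All 8 chromosome structure genes, all 6 tested cyclins and kinases and all 6 checkpoint genes were below 0, none of them past the threshold. SKA1, SKA2 and SKA3 were above 0, and the CENP genes and kinesins lay on both sides of it.

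CENPU, part of a kinetochore complex to which PLK1 binds in human cells, was at 9.06, 9.38, 9.65, 9.33 and 9.44 CPM in U0126 libraries 1 to 5, 10.1, 10.4, 8.51 and 7.57 CPM in posterior libraries 1 to 4, 12.4, 11.8, 11.7, 10.50 and 11.8 CPM in anterior libraries 1 to 5, and 8.79, 10.2 and 6.001 CPM in uninjured libraries 1 to 3. All posterior libraries lay below all anterior libraries, by a narrow margin, a pattern seen in 2.07% of all genes, and the same held for the U0126 libraries against the anterior ones (2.36% of all genes). The log2 fold change was −0.34 ± 0.14 (SE) in posterior over anterior blastemas (edgeR adjusted p = 0.452). The other genes at the ends of the range were MAD2L1, a checkpoint protein that blocks CDC20, at −0.33 ± 0.37 (SE), PLK1 at −0.29 ± 0.39 (SE), CENPW at 0.28 ± 0.25 (SE), CENPV at 0.21 ± 0.37 (SE) and SKA3, another subunit of the SKA complex, at 0.15 ± 0.15 (SE). For MKI67 the value was −0.16, with a 95% interval of −0.49 to 0.16.

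Posterior blastemas with U0126 were also set against anterior blastemas, which shares libraries with both comparisons above. None of the 55 passed in edgeR's quasi-likelihood test, against 0.562% of all genes called higher and 0.619% lower, and 4 were lower at an unadjusted p under 0.05, as were 8.5% of all genes. These were CENPV, at a log2 fold change of −1.23 ± 0.35 (SE; edgeR adjusted p = 0.0889), CENPS at −0.36 ± 0.16 (SE), CENPU at −0.31 ± 0.13 (SE) and SKA1 at −0.30 ± 0.13 (SE). CENPV was the 1 gene to pass in DESeq2 (adjusted p = 0.0144), where 6.6% of all genes passed. It was also the 1 gene to pass without U0126 library 4 (edgeR adjusted p = 0.00918), where 828 of 19345 genes passed. At the upper end were CENPE, a kinesin-like motor that carries chromosomes to the spindle equator, at 0.22 ± 0.16 (SE), KIF11 at 0.21 ± 0.28 (SE) and ANLN at 0.20 ± 0.21 (SE). The median of the 55 was −0.02.

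**Figure D4:**
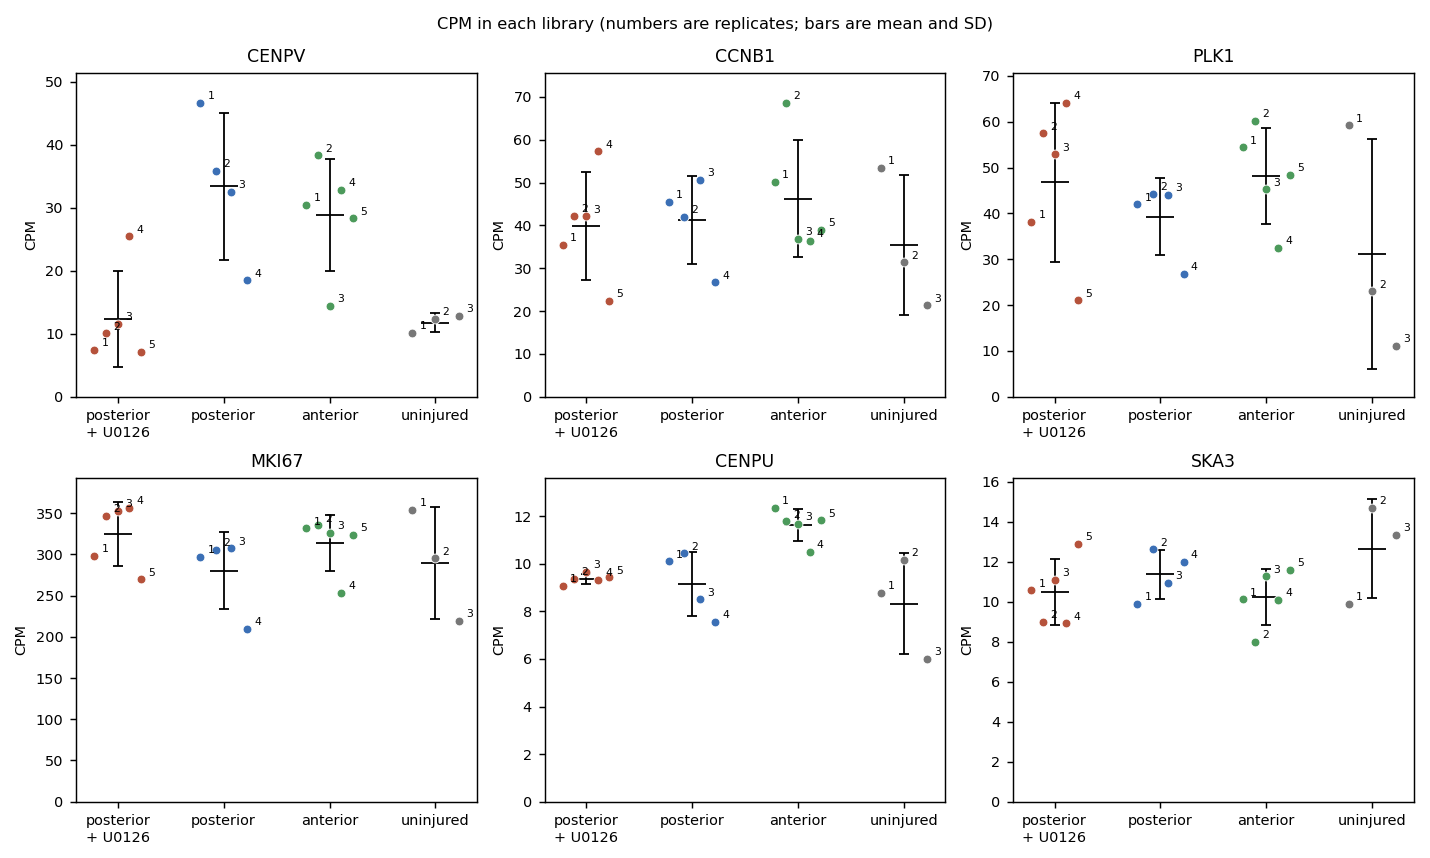
CPM of 6 mitosis genes in each library (points, numbered by replicate), with mean and SD per group (bars), for posterior blastemas with U0126, posterior blastemas, anterior blastemas and uninjured forelimb. CENPV is at 7.12 to 11.6 CPM in the U0126 libraries other than library 4 and at 10.1 to 12.9 CPM in the uninjured libraries, PLK1 runs from 59.2 to 11.1 CPM across the uninjured libraries, and SKA3 is highest in uninjured library 2.

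Blastemas were then compared with uninjured forelimb, the comparison that asks what regeneration changed. The same 3 uninjured libraries serve all 3 comparisons. With all of them, none of the 55 genes passed in edgeR's quasi-likelihood test in U0126 over uninjured (background 0% higher and 0% lower), in posterior over uninjured (0.866% and 1.24%) or in anterior over uninjured (0.067% and 0.139%). DESeq2 called 0, 1 (CENPV) and 2 (CENPU and CENPV), and 0.175%, 10.6% and 8.96% of all genes. At an unadjusted p under 0.05, 1, 2 and 5 genes were higher, against 4.33%, 10.7% and 9.7% of all genes, and 1 was lower, SKA1 in U0126 over uninjured, against 5.4%. The medians of the 55 were 0.29, 0.18 and 0.30 on the log2 scale, against 0.00, −0.02 and −0.02 over all genes. With the replicate number as a block they were 0.43, 0.27 and 0.43. Without uninjured library 3 they were 0.05, −0.04 and 0.07.

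CENPV was again the gene with the largest difference on the posterior and anterior sides. Its mean was 33.4 ± 11.6 CPM in posterior (SD, n = 4) and 28.9 ± 8.89 CPM in anterior blastemas (SD, n = 5), against 11.8 ± 1.47 CPM in uninjured forelimb (SD, n = 3). Every posterior and every anterior library was above every uninjured one, as in 8.94% and 5.8% of all genes. The log2 fold changes were 1.503 ± 0.44 (SE; edgeR adjusted p = 0.0715) and 1.29 ± 0.42 (SE; adjusted p = 0.112), and DESeq2 gave adjusted p = 0.0103 and adjusted p = 0.0277. With U0126 the log2 fold change over uninjured was 0.06, with a 95% interval of −0.79 to 0.92. Unlike most of the set, CENPV hardly differed among the uninjured libraries.

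Without uninjured library 1, which left uninjured libraries 2 and 3, edgeR's quasi-likelihood test called 19 of the 55 genes higher with U0126 (5.86% of all genes), 5 higher in posterior blastemas (6.24%) and 24 higher in anterior blastemas (9.98%), and none lower (2.78%, 3.52% and 8.55% of all genes). The medians of the 55 were then 0.63, 0.54 and 0.63 on the log2 scale, against 0.02, 0.01 and 0.02 over all genes. These counts thus rest on which uninjured libraries are used. Uninjured library 1 was put in doubt partly for its high sum of these same genes. The counts and fold changes without it, here and below, are therefore not independent evidence that these genes rise in blastemas. In posterior blastemas the 5 genes were 9.09% of the 55, near the share of all genes. Muscle genes, at 6740 and 14419 CPM in uninjured libraries 2 and 3 and 563 CPM in library 1, moved with this difference, and their part in it was not tested.

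**Figure D5:**
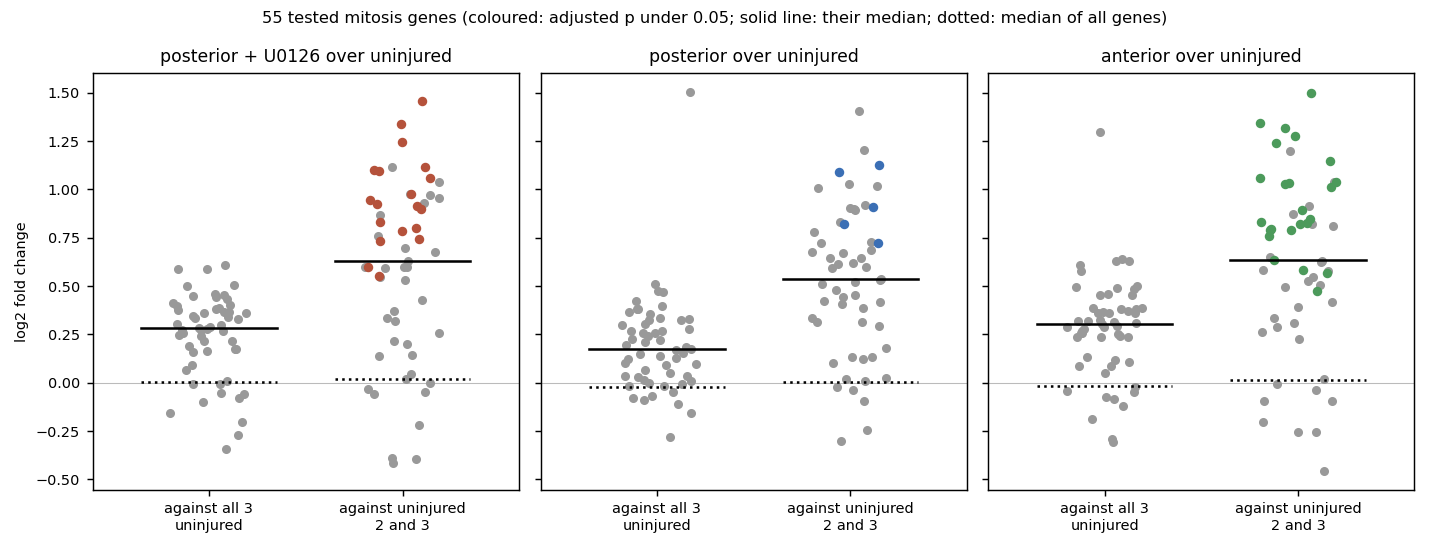
Log2 fold change of the 55 tested mitosis genes in each kind of blastema over uninjured forelimb, against all 3 uninjured libraries (left in each panel) and against uninjured libraries 2 and 3 (right); coloured points have an adjusted p under 0.05, solid lines are the medians of the 55 and dotted lines those of all genes. The medians are 0.29, 0.18 and 0.30 on the left and 0.63, 0.54 and 0.63 on the right, and no gene is coloured on the left.

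Among the kinases, PLK1 had the largest of these differences. It was at 38.2, 57.5, 52.9, 64.2 and 21.1 CPM in U0126 libraries 1 to 5, 41.98, 44.3, 44.1 and 26.9 CPM in posterior libraries 1 to 4, 54.4, 60.2, 45.3, 32.5 and 48.4 CPM in anterior libraries 1 to 5, and 59.2, 23.04 and 11.1 CPM in uninjured libraries 1 to 3. Uninjured library 1 was among the highest of all libraries, and uninjured libraries 2 and 3 lay below nearly all of them. With all libraries the log2 fold change was 0.59 ± 0.44 (SE) in U0126 over uninjured and 0.63 ± 0.44 (SE) in anterior over uninjured, and neither passed. Without uninjured library 1 they were 1.45 (edgeR adjusted p = 0.0433) and 1.498 (adjusted p = 0.0247).

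TTK, the kinase at the head of the spindle checkpoint, was called in all 3 comparisons without uninjured library 1, at log2 fold changes of 1.12, 1.13 and 1.24 for U0126, posterior and anterior blastemas. Its level was 22.2, 24.5, 27.1, 32.1 and 15.5 CPM in U0126 libraries 1 to 5, 27.02, 26.9, 26.7 and 17.4 CPM in posterior libraries 1 to 4, 25.2, 31.2, 25.4, 22.7 and 27.9 CPM in anterior libraries 1 to 5, and 34.03, 13.8 and 8.57 CPM in uninjured libraries 1 to 3. Uninjured libraries 2 and 3 were below every blastema library, and uninjured library 1 was above them all. The condensin subunits NCAPH, of condensin I, and NCAPH2, of condensin II, were also called in all 3. Their log2 fold changes were 0.91, 0.91 and 1.03 for NCAPH and 1.24, 1.09 and 1.32 for NCAPH2. So were KIF14, a motor of cytokinesis, at 0.98, 0.82 and 1.01, and CENPK, of the inner kinetochore, at 0.80, 0.72 and 0.76.

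Among the kinesins, KIF2C, which takes microtubules apart at the centromere, was at 14.5, 16.04, 22.9, 20.4 and 12.9 CPM in U0126 libraries 1 to 5, 18.6, 18.7, 18.4 and 10.1 CPM in posterior libraries 1 to 4, 19.5, 17.8, 18.8, 15.6 and 18.3 CPM in anterior libraries 1 to 5, and 18.4, 11.2 and 5.07 CPM in uninjured libraries 1 to 3. Uninjured library 1 lay within the blastemas, and uninjured library 3 was below every one of them. Against all 3 uninjured libraries the log2 fold change was 0.59 ± 0.32 (SE) with U0126, 0.51 ± 0.33 (SE) in posterior and 0.64 ± 0.32 (SE) in anterior blastemas. Without uninjured library 1 it was 1.09 (edgeR adjusted p = 0.0465) with U0126 and 1.15 (adjusted p = 0.0252) in anterior blastemas. KIF15, a motor that works beside KIF11, was higher in every anterior library than in every uninjured one, as were CENPU and CENPV. These 3 genes, the only such ones of the set, were 5.45% of its tested genes, near the 5.8% of all genes. The log2 fold change of KIF15 was 0.45 ± 0.21 (SE, edgeR adjusted p = 0.221), and that of CENPU 0.48 ± 0.15 (SE, edgeR adjusted p = 0.105).

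In the centromere group, CENPI, another inner kinetochore protein, had log2 fold changes of 0.61 ± 0.31 (SE), 0.47 ± 0.32 (SE) and 0.63 ± 0.31 (SE) over all uninjured libraries in U0126, posterior and anterior blastemas. CENPK had 0.50 ± 0.21 (SE; edgeR adjusted p = 0.506) with U0126, and CENPS 0.47 ± 0.20 (SE; adjusted p = 0.189) in posterior blastemas. By role, the medians without uninjured library 1 were highest in the kinesins, at 0.98, 0.86 and 0.95, and the cyclins and kinases, at 0.90, 0.69 and 0.87. Over the 18 CENP genes they were 0.24, 0.33 and 0.45.

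Also without uninjured library 1, the NDC80 and SKA group had the lowest medians, at −0.22, −0.04 and −0.09, with the SKA genes below 0 in all 3. NDC80 and SPC25 were above 0 in all 3 there, and NDC80 was among the genes called higher with U0126 and in anterior blastemas. SKA3 was at 10.6, 9.001, 11.1, 8.92 and 12.9 CPM in U0126 libraries 1 to 5, 9.88, 12.6, 10.9 and 11.99 CPM in posterior libraries 1 to 4, 10.1, 8.002, 11.3, 10.1 and 11.6 CPM in anterior libraries 1 to 5, and 9.900, 14.7 and 13.3 CPM in uninjured libraries 1 to 3. Uninjured library 2 was the highest of all, and uninjured library 1 lay within the blastemas. Its log2 fold change over all uninjured libraries was −0.27 ± 0.16 (SE) with U0126, −0.15 ± 0.17 (SE) in posterior and −0.31 ± 0.16 (SE) in anterior blastemas (edgeR adjusted p = 0.547, 0.644 and 0.283).

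SKA1 and SKA2 did not pass in these comparisons either. With all uninjured libraries, SKA1 was at 0.01 ± 0.15 (SE) in posterior over uninjured. SKA1 was at −0.34 ± 0.14 (SE) and SKA2 at −0.20 ± 0.13 (SE) in U0126 over uninjured, and SKA2 was at −0.19 ± 0.13 (SE) in anterior over uninjured, where every anterior library lay below every uninjured one. The same was true of CENPC, which links centromeric chromatin to the outer kinetochore, at −0.29 ± 0.16 (SE), and these were the only 2 of the 55 lower without overlap there, against 4.9% of all genes. In posterior over uninjured, CENPC was at −0.28 ± 0.17 (SE) and SPC25, a subunit of the NDC80 complex, at −0.11 ± 0.21 (SE). BIRC5, the survivin subunit of the passenger complex, was at 8.103, 7.82, 8.61, 9.41 and 7.74 CPM in U0126 libraries 1 to 5, 10.01, 9.17, 9.05 and 7.28 CPM in posterior libraries 1 to 4, 8.48, 7.86, 7.79, 8.43 and 8.44 CPM in anterior libraries 1 to 5, and 9.900, 9.32 and 6.85 CPM in uninjured libraries 1 to 3, so that its libraries overlapped in every comparison.

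Genes of the same process outside the set gave much the same values. In a list of 58 tested further mitosis genes, among them AURKB, INCENP and the condensin core subunits SMC2 and SMC4, none passed in any of the 6 comparisons, and the median log2 fold change was 0.08 in U0126 over posterior, −0.12 in posterior over anterior and 0.31, 0.22 and 0.35 in U0126, posterior and anterior blastemas over uninjured. Without uninjured library 1, 17, 12 and 24 of the 58 were higher and none lower. Of all genes, 5.86%, 6.24% and 9.98% were then called higher and 2.78%, 3.52% and 8.55% lower. Of 37 DNA replication genes none passed with all libraries, and 15, 6 and 18 were higher without uninjured library 1. The 15 genes of the anaphase-promoting complex, 12 of cohesin and 14 of the G1 cyclins, kinases and inhibitors had no call with all libraries in any comparison. When uninjured library 1 was left out, those higher were 2, 3 and 3 in the first list, 5, 1 and 4 in cohesin and 1, 3 and 3 in the G1 list. ANAPC5 alone was lower, in anterior blastemas.

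Among 24 regulators of mitotic gene transcription, 1 passed with all libraries, in U0126 over posterior. There 4.13% of all genes were called higher, so 1 call among 24 genes is near the background. LIN54, the DNA-binding subunit of the complex that represses or activates cell cycle genes, was at 15.3, 14.04, 13.9, 14.6 and 10.3 CPM in U0126 libraries 1 to 5 and at 9.04, 8.95, 10.45 and 10.3 CPM in posterior libraries 1 to 4. Only U0126 library 5 reached into the posterior range. LIN54 was at 12.1, 9.63, 11.1, 11.3 and 11.2 CPM in anterior libraries 1 to 5. In uninjured libraries 1 to 3 it was at 13.0, 15.2 and 12.6 CPM. Its log2 fold change in U0126 over posterior was 0.49 ± 0.12 (SE; edgeR adjusted p = 0.0256). FOXM1, MYBL2 and the E2F genes of the list did not pass with all libraries in any comparison. When uninjured library 1 was left out, 4, 2 and 9 of the 24 were higher over uninjured in U0126, posterior and anterior blastemas. In each comparison 1 was lower. FOXM1 and MYBL2 were among the 9. Of all genes, 5.86%, 6.24% and 9.98% were then called higher and 2.78%, 3.52% and 8.55% lower.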

How the data were processed

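The deposited files hold raw counts of reads per gene as the authors' alignment gave them, not normalized, with columns for unstranded and stranded counting. The tools named in the submitters' processing notes are Trimmomatic 0.39, a read trimmer, and the aligner STAR 2.7.3a. Neither genome build nor annotation is given in the sources used here; no coordinates or sequences are reported. The ratio of the stranded columns was 1.90 to 2.16. The unstranded counts were used, as set beforehand together with the names of the genes. Reads of overlapping or antisense genes cannot then be told apart. CCNB3, BUB3, CENPI, CENPU, NDC80 and SKA3, for example, overlap other genes by position in a RefSeq table, which was not used for counting. Totals of reads outside genes, 14.2% to 16.4% of reads, were left out. Samples were grouped by their titles.

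Genes passing edgeR's filterByExpr (19398) entered 1 model of the 4 groups, with TMM scaling (factors 0.862 to 1.08), by edgeR 4.0.16 under R 4.3.3 (quasi-likelihood F test with robust dispersions, Benjamini-Hochberg over all genes, threshold 0.05). CPM were computed from the deposited counts per 1000000 of the TMM-scaled total. The SE was derived from the F test (the size of the log2 fold change over the root of F), and 95% intervals use the test's degrees of freedom. Levels are not compared between genes, since transcript lengths were not used. The test was tested on simulated data. Alternatives tried were DESeq2 1.42.0, scaling by RLE or by total counts, dropping the filter or raising it (a CPM of 1 in at least 3 libraries), the second stranded column, fits of only the 2 groups compared, a replicate block, a block of codes shared by library names, and omitting each library in turn; omitting uninjured replicate 1 and U0126 replicate 5 together was chosen after seeing the data. The replicate numbers did not pair the libraries throughout, although those numbered 1 deviated alike. Figures were drawn with matplotlib 3.10.9.

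The genes, lists and alternatives were chosen with earlier results of these data known. Named genes are those past the threshold, the 3 highest and 3 lowest fold changes of each comparison, the 2 most abundant genes of each role and a fixed set of well-known members, of which the text gives a selection. A planned search of promoters for motifs was not run.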

Additional observations from a re-analysis of the deposited data

Results flagged for a closer look

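Within the groups of 4 or 5 libraries, 102 sets of values of 34 named genes were examined for a single library far from the others, which chance alone gives in about 1 of 20. It was found in 10. In posterior library 4, 6 genes were far below the other posterior libraries: BUB3 at 60.9 CPM (others 87.3 to 89.0 CPM), MKI67 at 210 CPM (others 297 to 307 CPM), TOP2A at 179 CPM (others 294 to 309 CPM), PLK1 at 26.9 CPM (others 41.98 to 44.3 CPM), KIF2C at 10.1 CPM (others 18.4 to 18.7 CPM) and TTK at 17.4 CPM (others 26.7 to 27.02 CPM). In anterior library 4, MKI67 was at 253 CPM (others 324 to 335 CPM) and NDC80 at 19.9 CPM (others 24.1 to 25.0 CPM). In U0126 library 5, KIF15 was at 30.2 CPM (others 41.9 to 43.2 CPM). The only value far above its group was CENPV in U0126 library 4, at 25.5 CPM (others 7.12 to 11.6 CPM). These genes share their libraries, so these cases are not independent of each other.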

How the results depend on the processing

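Of the 6 comparisons, posterior over anterior had 0 mitosis genes called in every alternative run. DESeq2 called 0.655% of all genes there, and each other run called 0 to 4 genes in all. A count of 0 among the 55 is thus near the background. In U0126 over posterior the count of 1 fell to 0 with only the 2 groups in the fit (5.38% of all genes). With the replicate block it was also 0 (947 of 19398 genes). It was 2 in DESeq2 (15.3% of all genes). Without uninjured replicate 1 and U0126 replicate 5 it was 2, BUB3 and CENPV (13% of all genes). Leaving out 1 library gave 0 to 3, with 127 of 19330 to 2381 of 19345 genes called. The 3 (CENPS, CENPV and SKA1) came without U0126 replicate 4 (12.3% of all genes). Under the other alternatives the count stayed at 1, CENPV, with 4.88% to 10.9% of all genes called. In U0126 over anterior the count of 0 was 1 in DESeq2 (6.6% of all genes). It was 0 to 1 when leaving out 1 library, with 1 (CENPV) without U0126 replicate 4 (828 of 19345 genes). Over uninjured, U0126 gave 34 (33 higher and 1 lower) without uninjured replicate 1 and U0126 replicate 5, and 0 to 19 when leaving out 1. Posterior gave 1 in DESeq2 (10.6% of all genes), 16 without both, all higher, and 0 to 5. Anterior gave 2 in DESeq2 (8.96% of all genes), 31 without both (30 higher and 1 lower) and 0 to 24. The gene lower without both was SKA3, in U0126 and in anterior blastemas. Without both, 22%, 15.7% and 22.7% of all genes were called. U0126 replicate 5 was singled out for its low sum of these same genes, and posterior replicate 4, also low, was kept, so the counts without both are not independent evidence. In the comparisons with uninjured forelimb the highest count of each range came without uninjured replicate 1. That library was put in doubt partly for its high sum of these same genes, so these counts are not independent evidence either.

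The replicate numbers did not pair the libraries throughout: the correlations of deviations for the same number ran from −0.243 to 0.349. For number 1 they were above 0 in every comparison, at 0.156 to 0.349. For the other numbers they fell on both sides of 0, at −0.243 to 0.221. Why the libraries numbered 1 deviated alike was not tested. The median over the 55 genes with the block was 0.16 in U0126 over posterior, −0.19 in posterior over anterior and 0.43, 0.27 and 0.43 over uninjured. Anterior and uninjured libraries 1 to 3 also share codes in their library names, whose meaning the labels do not give. A fit of only these groups with those codes as the block called 0 of the 55 and 60 of 18532 genes. Its median was 0.47 over the 55 and 0.00 over all genes. With the replicate block, the log2 fold change of CENPV in U0126 over posterior was −1.49 (adjusted p = 0.0610). Values near 0 changed sign. With the block, CCNB1 and TOP2A in U0126 over posterior were 0.0598 and 0.0595, and CENPV in U0126 over uninjured was −0.0425. Without both libraries they were 0.0950 for CCNB1 and 0.0890 for TOP2A, and SPC25 in posterior over uninjured was 0.10. With total-count scaling, SPC25 was 0.0324 and SKA3 0.0049 in posterior over uninjured. Leaving out 1 library gave ranges of −0.21 to 0.10 for CCNB1, −0.18 to 0.10 for TOP2A and −0.0323 to 0.26 for CDK1 in U0126 over posterior, −0.38 to 0.21 for CENPV in U0126 over uninjured and −0.37 to 0.10 for SPC25 in posterior over uninjured. Total-count scaling moved the median of all genes to 0.14 in posterior and 0.12 in anterior over uninjured, with medians of the mitosis genes of 0.33 and 0.42. The cause of these shifts was not tested. With 3 to 5 libraries a group, the 95% intervals of the 55 genes in U0126 over posterior reached a median of 0.47 on either side on the log2 scale.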
